A study of Mus musculus with 15 samples.

Results

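The mRNA of 10 immediate early transcription factors were followed in P14 CD8+ T cells: the orphan nuclear receptors Nr4a1 and Nr4a3, the zinc finger factors Egr1, Egr2 and Egr3, and the AP-1 subunits Fos, Fosl1, Fosl2, Jun and Junb. They were chosen by symbol, and all 10 were found among the 11262 mRNA of a table on naïve and TCR activated cells and among the 11211 mRNA of a table on cytotoxic T cells (CTL). P14 mice carry a transgenic TCR for the gp33–41 peptide of LCMV. The first table held 3 groups of 3 libraries, and lymph node cells of 3 female mice of 9 to 13 weeks were pooled for each replicate and divided between the groups. Naïve cells were sorted ex vivo through a gate that included CD44 low, CD8+ and TCRβ+. The TCR activated group was stimulated over 24 h by gp33–41 at 100 ng/ml, in medium that held IL-12 (2 ng/ml) as well as IL-2 (20 ng/ml). The third group was stimulated alike but held 10 µM IC87114 as well, an inhibitor of the PI3K catalytic subunit p110δ (PI3Kdi). Both activated groups were sorted as live CD8+ cells, so the naïve gate was the narrower one. The second table held 3 libraries of CTL maintained in 20 ng/ml IL-2 and 3 of CTL washed out of IL-2 on day 6 and kept without it for 24 h. These CTL had been activated for 48 h and expanded for 4 days in IL-2. The age and number of mice behind the CTL and any sort of these cells are not given in the sources used here.

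NR4A, EGR and AP-1 genes belong to the immediate early genes, whose transcription starts within minutes of TCR engagement without new protein synthesis. Calcium, MAPK and PKC signals switch them on through factors such as SRF with its ELK partners, CREB and MEF2, and their mRNA are short lived. Nr4a1 is widely used as a reporter of TCR signal strength, EGR2 and EGR3 are known for restraining T cell activation, and AP-1 dimers of a FOS and a JUN protein bind together with NFAT at the genes of cytokines such as IL-2.

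Levels are given as FPKM, which are per exon length and can be set side by side between genes of a library. Both tables were normalised apart, so levels across them are only set beside each other. Differences are log2 fold changes of FPKM + 0.1 from limma, with p-values adjusted by Benjamini-Hochberg over all mRNA of a table, and an mRNA was called higher or lower where its adjusted p was below 0.05 and its fold change over 2 or under 0.5. In bulk libraries a lower level in every cell cannot be told apart from fewer cells that hold the mRNA. The CD8 T cell markers Cd8a, Cd8b1, Cd3d, Cd3e, Cd3g and Lck were present in each group, and summed to 3699 to 4041 FPKM in naïve cells, 841.7 to 878.9 in TCR activated cells and 1020 to 1170 with PI3Kdi, and to 1341 to 1396 in CTL in IL-2 and 2228 to 2463 without it. No erythroid marker was measured, and measured CD4 T cell markers summed to at most 1.48 FPKM in the first table. In CTL the measured ones summed to 16.75 to 21.36 FPKM in IL-2 and 25.55 to 30.23 FPKM without it. Several libraries stood apart within their group. Naïve replicate 2 did so in several of the 10 factors. TCR activated replicate 1 had 72 of 9775 mRNA over 2-fold above both others of its group and TCR activated replicate 3 had 25 above and 63 below, against 15 above and 8 below of 9703 for naïve replicate 2. TCR activated replicate 2 was the lowest of its group for 8 of the 10 factors, and replicate 1 of CTL in IL-2 for 7 of the 8 with a group mean of at least 1 FPKM. Results that a single library decides are given with and without it.

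After activation for 24 h these immediate early factors were at very different levels. Peptide, cytokines, time in culture and sort gate all differed between naïve and activated cells, and the part of each was not tested. Compared with naïve cells, 5 of the 10 mRNA were called higher in TCR activated cells (Nr4a1, Nr4a3, Egr2, Fosl1 and Fosl2) and 3 lower (Egr3, Fos and Jun). Calls were common in this comparison, with 25.0% of all mRNA called higher and 23.7% lower. Markers of other cells were also called lower with activation, namely the B cell marker Cd79b (-2.72) and the myeloid marker Itgam (-1.73), while Cd79a, Ms4a1, Cd22 and Cst3 were not called. Zbtb7b, a factor of CD4 T cells, was called higher (1.85), with 0.00 to 0.18 FPKM in naïve cells and 0.38 to 0.63 FPKM in TCR activated cells. Itgam had 0.23 to 0.30 FPKM and 0.00 to 0.03 FPKM. These levels are near the pseudocount of 0.1, so the folds of Zbtb7b and Itgam are set in part by it. The part of these other cells in the levels of the 10 factors was not tested. PI3Kdi was followed by 2 calls, both lower, for Nr4a1 and Nr4a3, where 2.10% of all mRNA were called lower and 3.04% higher. limma called none of the 10 higher with PI3Kdi, although 3 (Egr1, Egr2 and Egr3) were higher at an unadjusted p under 0.05. In CTL without IL-2, 6 were called lower (Nr4a3, Egr1, Fos, Jun, Fosl1 and Fosl2) and 0 higher, against 13.9% of all mRNA called lower and 14.3% higher. At an unadjusted p under 0.05 from limma, 7 were lower there, Junb included, and 0 higher. The median log2 fold change of the 10 mRNA was 0.78 for TCR activated against naïve cells, 0.20 for PI3Kdi and -1.56 for CTL without IL-2, and that of all mRNA was 0.01, -0.01 and 0.00. Groups that did not overlap were common: 5 of the 10 mRNA lay wholly above naïve cells in TCR activated cells and 2 wholly below, against 40.7% and 40.0% of all mRNA, and 7 lay wholly lower in CTL without IL-2, against 38.5%. With PI3Kdi 3 lay wholly above TCR activated cells (Egr2, Egr3 and Fos) and 2 wholly below, against 18.1% and 18.6%.

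**Figure D1:**
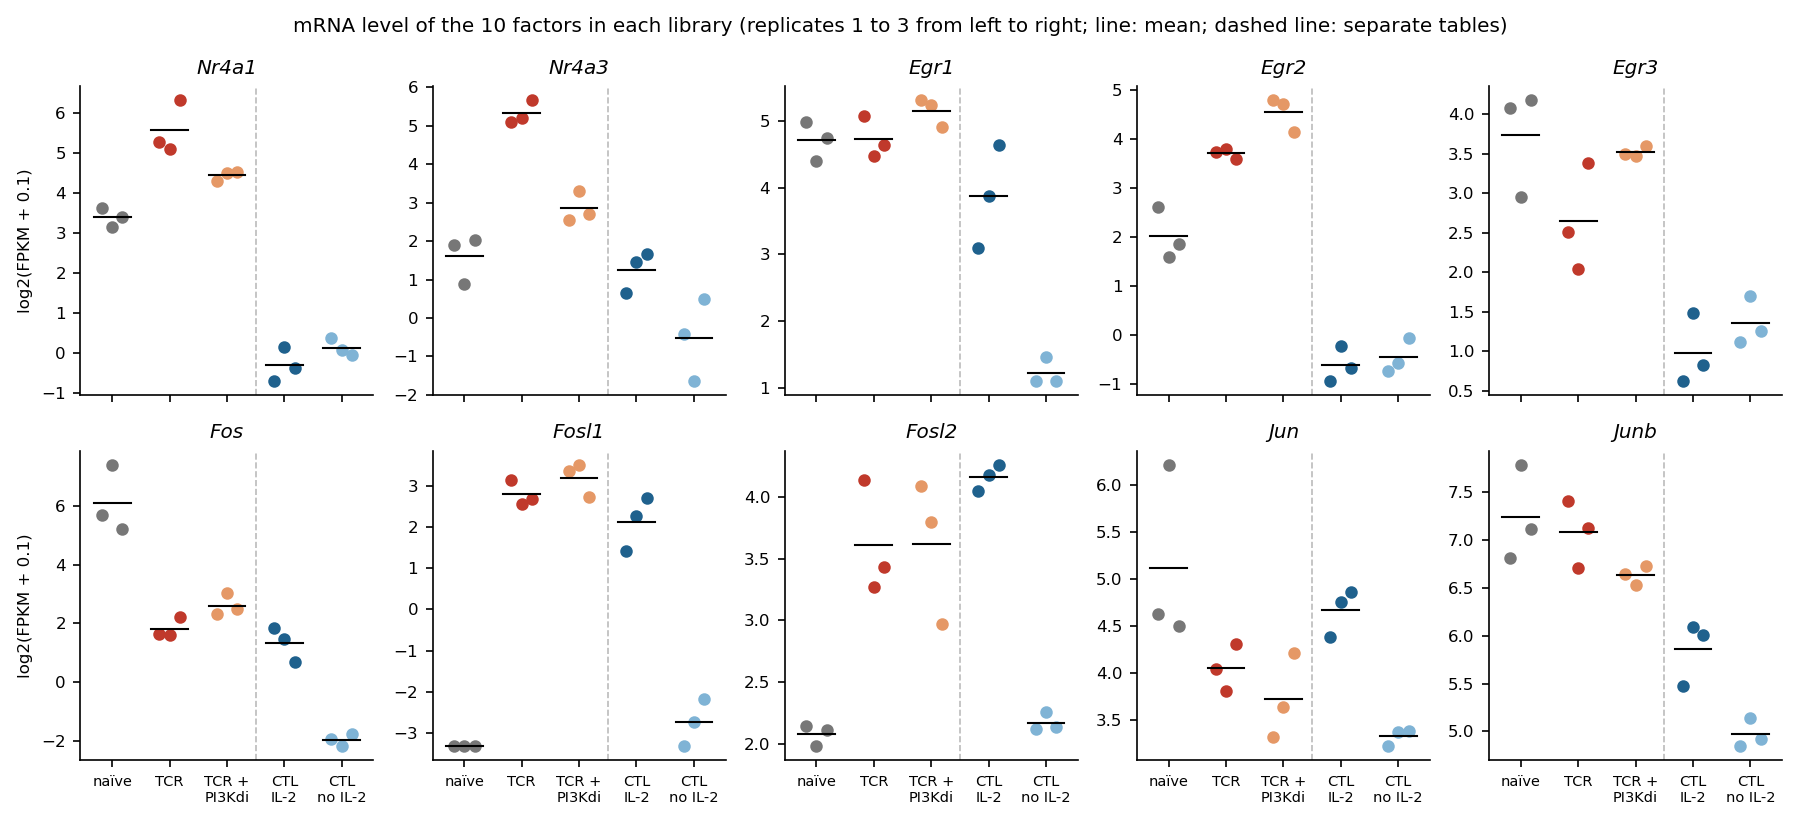
Level of each of the 10 mRNA as log2(FPKM + 0.1) on the y axis in the 5 groups on the x axis, with 1 point per library (replicates 1 to 3 from left to right) and a line at the mean of the 3 points; the dashed line separates tables that were normalised apart, and the naïve Fosl1 points mark blank cells read as 0. A reader should see Nr4a1 and Nr4a3 peaking in TCR activated cells, Egr2 peaking with PI3Kdi, and Fos, Jun and Junb highest in naïve replicate 2.

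The NR4A receptors rose with TCR activation and fell back with PI3Kdi. NR4A proteins bind DNA as monomers or dimers and act without a known physiological ligand. Nr4a1 (Entrez 15370, chr15:101253902-101274795 of mm10) had 12.23, 8.78 and 10.45 FPKM in the 3 naïve libraries, 38.55, 34.31 and 80.14 FPKM in TCR activated cells and 19.56, 22.45 and 22.89 FPKM with PI3Kdi. No 2 of these groups overlapped, and TCR activated replicate 3 was the highest library. The log2 fold change was 2.18 (SE 0.26, adjusted p = 1.14e-05) for TCR activated against naïve cells and -1.13 (SE 0.26, adjusted p = 0.0132) for PI3Kdi. Without TCR activated replicate 3 the difference with PI3Kdi was -0.75 (adjusted p = 0.00607), which is less than 2-fold.

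Nr4a3 (Entrez 18124, chr4:48045078-48086447) went through the larger change. It had 3.60, 1.74 and 3.99 FPKM in the naïve libraries, 34.10, 37.04 and 50.78 FPKM in the TCR activated ones and 5.75, 9.82 and 6.45 FPKM with PI3Kdi. The log2 fold change was 3.73 (SE 0.30, adjusted p = 3.38e-07) with activation and -2.47 (SE 0.30, adjusted p = 0.000265) with PI3Kdi, and the groups did not overlap. Of the mean rise in FPKM over naïve cells, 11.3% was seen with PI3Kdi for Nr4a3 and 27.5% for Nr4a1. Both mRNA were still above naïve cells with PI3Kdi, by 1.05 (SE 0.26, adjusted p = 0.00314) for Nr4a1 and 1.26 (SE 0.30, adjusted p = 0.00219) for Nr4a3 on the log2 scale. Without naïve replicate 2, the lowest naïve library for both, these differences were 0.93 and 0.90 and no longer 2-fold.

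In CTL both receptors were low. Nr4a1 had 0.51, 1.01 and 0.66 FPKM in IL-2 and 1.19, 0.95 and 0.86 FPKM without it, with overlapping groups and a log2 fold change of 0.45 (95% interval -0.13 to 1.02, adjusted p = 0.143). Nr4a3 had 1.46, 2.62 and 3.05 FPKM in IL-2 and 0.65, 0.22 and 1.30 FPKM without it. Every library without IL-2 lay below every library in IL-2, and the log2 fold change was -1.77 (SE 0.48, adjusted p = 0.00808). With a pseudocount of 1 it was -0.99 and under 2-fold, since these levels are near 1 FPKM.

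The sequences before a start of Nr4a1 and of Nr4a3 are shown because both mRNA moved together in the first table and the windows hold repeats of CRE-like letters. They are the 250 bases before a RefSeq start on GRCm38.p6, 5′ to 3′, chr15:101266596-101266845 (+ strand) and chr4:48045055-48045304 (+ strand). Capitals mark TGACGT in Nr4a3, and in Nr4a1 the letters TGCGTCA or an EGR site, which is GCGTGGGCG or GCGGGGGCG, all on either strand.
Nr4a1: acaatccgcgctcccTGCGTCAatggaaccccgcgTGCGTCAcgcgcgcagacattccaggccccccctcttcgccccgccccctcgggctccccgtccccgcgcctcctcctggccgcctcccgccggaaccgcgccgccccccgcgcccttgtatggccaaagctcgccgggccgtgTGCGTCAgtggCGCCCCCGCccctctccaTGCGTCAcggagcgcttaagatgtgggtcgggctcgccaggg
Nr4a3: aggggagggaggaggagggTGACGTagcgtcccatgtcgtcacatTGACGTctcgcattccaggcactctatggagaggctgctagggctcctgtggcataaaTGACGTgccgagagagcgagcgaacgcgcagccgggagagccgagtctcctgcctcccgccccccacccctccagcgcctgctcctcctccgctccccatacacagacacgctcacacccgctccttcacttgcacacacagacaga
The window of Nr4a1 held 4 copies of TGCGTCA and 1 EGR site, and that of Nr4a3 held 3 copies of TGACGT. Among 32851 such windows, 1.75% held TGCGTCA, 6.47% TGACGT and 3.06% an EGR site. TGACGT and TGCGTCA were added to the search after the sequences were seen. A match is a description of the letters and not a measured binding site.

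The EGR mRNA did not follow the NR4A mRNA. EGR1 to EGR3 bind the same GC-rich site and are held in check by the corepressors NAB1 and NAB2. Egr1 (Entrez 13653) had 31.57, 20.99 and 26.60 FPKM in the naïve libraries, 33.63, 22.03 and 24.82 FPKM in the TCR activated ones and 39.58, 37.45 and 29.85 FPKM with PI3Kdi. The naïve and TCR activated ranges lay over each other, and the log2 fold change was 0.02 (95% interval -0.38 to 0.42, adjusted p = 0.923). With PI3Kdi it was 0.42 (95% interval 0.02 to 0.82, adjusted p = 0.139) against TCR activated cells.

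Egr2 (Entrez 13654, chr10:67534469-67542188) was highest with PI3Kdi. It had 6.00, 2.90 and 3.52 FPKM in the naïve libraries, 13.15, 13.64 and 11.96 FPKM in the TCR activated ones and 27.49, 26.06 and 17.36 FPKM with PI3Kdi. The 3 groups did not overlap. The log2 fold change was 1.68 (SE 0.24, adjusted p = 5.46e-05) with activation and 0.84 (SE 0.24, adjusted p = 0.0367) with PI3Kdi, the second under 2-fold and so not called. Without PI3Kdi replicate 3, the lowest of its group, it was 1.05 (adjusted p = 0.0208) and past both limits.

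Egr3 (Entrez 13655, chr14:70077317-70082613) had 16.81, 7.65 and 17.99 FPKM in the naïve libraries, 5.60, 4.02 and 10.33 FPKM in the TCR activated ones and 11.20, 10.98 and 12.04 FPKM with PI3Kdi. It was called lower with activation, with a log2 fold change of -1.09 (SE 0.35, adjusted p = 0.0129), although naïve replicate 2 lay below TCR activated replicate 3. The call was lost without naïve replicate 1 (-0.92, adjusted p = 0.058), naïve replicate 3 (-0.87, adjusted p = 0.0573) or TCR activated replicate 2 (-0.79, adjusted p = 0.0593). With PI3Kdi the 3 libraries lay above all 3 TCR activated libraries, at a log2 fold change of 0.88 (95% interval 0.11 to 1.65, adjusted p = 0.11). Without TCR activated replicate 3 it was 1.25 (adjusted p = 0.0221) and past both limits.

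In CTL only Egr1 of these 3 mRNA passed the test. It had 8.49, 14.56 and 24.92 FPKM in IL-2 and 2.05, 2.65 and 2.06 FPKM without it, a log2 fold change of -2.65 (SE 0.32, adjusted p = 5.63e-05) with no overlap. Egr2 had 0.42 to 0.75 FPKM in IL-2 and 0.50 to 0.86 FPKM without it, and Egr3 had 1.44 to 2.69 FPKM and 2.07 to 3.14 FPKM. Their log2 fold changes were 0.16 (95% interval -0.46 to 0.77, adjusted p = 0.62) and 0.38 (95% interval -0.17 to 0.93, adjusted p = 0.188). Nab1 and Nab2 were not called in TCR activated against naïve cells, with PI3Kdi or in CTL, although Nab1 differed with activation at -0.74 (adjusted p = 9.61e-05), which is less than 2-fold. In PI3Kdi treated against naïve cells Nab1 was called lower, with a mean of 13.1 FPKM against 27.2 FPKM, and Nab2 was not called.

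Egr2 is shown here because its mRNA was highest with PI3Kdi and its window holds letters read by SRF and by CREB-like factors. The window is 1 of 5 listed for Egr2, chr10:67537619-67537868 of GRCm38.p6 (+ strand, 250 bases before the start). Capitals mark a CArG box, the site of SRF, and TGACGT, here on the other strand.
Egr2: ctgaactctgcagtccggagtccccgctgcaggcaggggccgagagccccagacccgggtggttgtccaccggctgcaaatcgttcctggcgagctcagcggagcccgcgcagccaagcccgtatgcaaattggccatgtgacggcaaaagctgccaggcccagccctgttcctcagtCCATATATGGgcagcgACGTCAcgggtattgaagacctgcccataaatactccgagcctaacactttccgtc
The CArG box lay 72 to 63 bases before the start and TGACGT 56 to 51 bases before it. A CArG box was found in 1.47% of the 32851 windows.

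**Figure D2:**
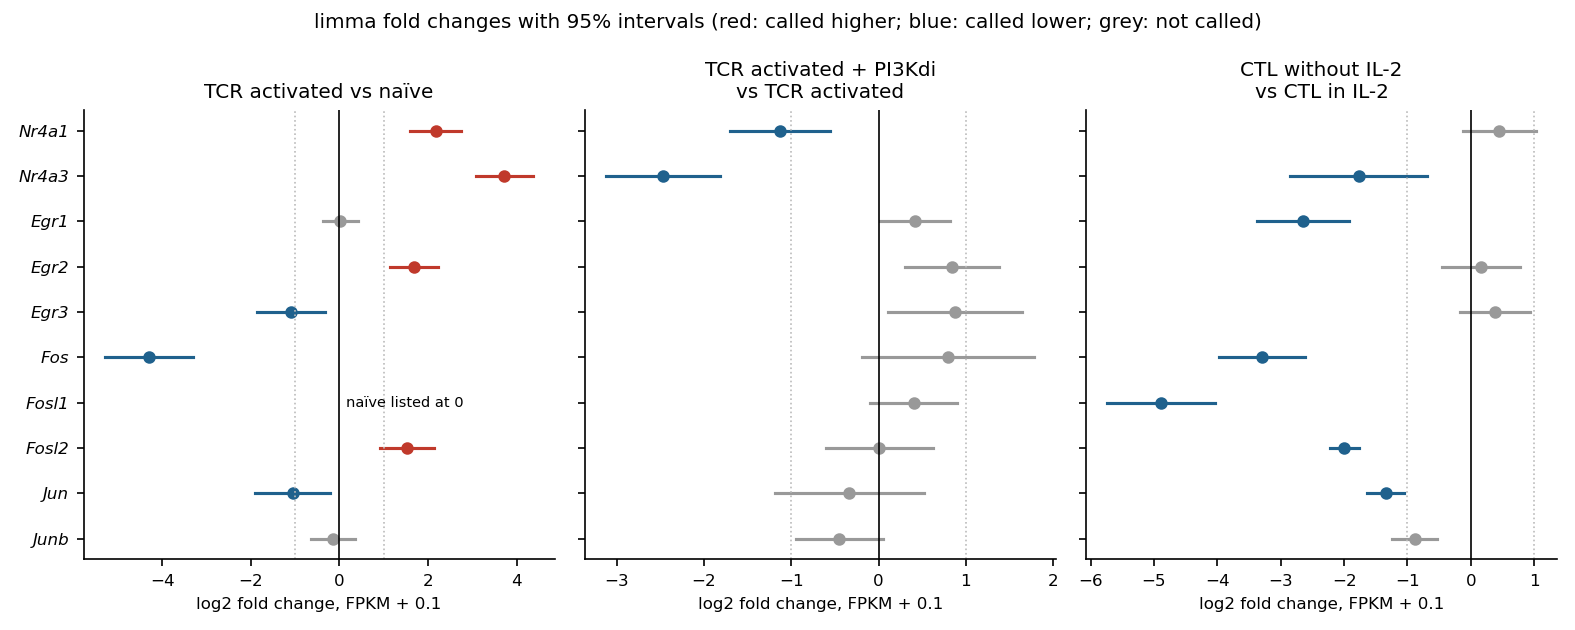
limma log2 fold change of FPKM + 0.1 on the x axis for each of the 10 mRNA on the y axis, with 95% intervals, in 3 comparisons (red, called higher; blue, called lower; grey, not called; dotted lines, 2-fold). A reader should see Nr4a1 and Nr4a3 to the right of 0 in the first panel and to the left in the second, Egr1 to Egr3 to the right in the second, and Egr1, Fos, Fosl1, Fosl2 and Jun to the left in the third.

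The makeup of the Fos family mRNA differed between naïve and TCR activated cells. FOS proteins bind DNA only as dimers with a JUN protein, and FOSL1 and FOSL2, also known as FRA-1 and FRA-2, lack the strong activation domain of FOS. Fos (Entrez 14281, chr12:85473890-85477274) had 52.54, 170.25 and 36.96 FPKM in the naïve libraries, 2.98, 2.91 and 4.53 FPKM in the TCR activated ones and 4.86, 8.02 and 5.47 FPKM with PI3Kdi. The naïve libraries were the highest by far, replicate 2 above the others. The log2 fold change was -4.31 (SE 0.45, adjusted p = 3.59e-06) with activation and -3.66 without naïve replicate 2. Every PI3Kdi library lay above every TCR activated library, but the log2 fold change of 0.80 (95% interval -0.19 to 1.78, adjusted p = 0.258) did not pass the test.

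Fosl1 (Entrez 14283, chr19:5447698-5455938) was blank, read as 0, in all 3 naïve libraries. It had 8.76, 5.87 and 6.34 FPKM in TCR activated cells and 10.15, 11.35 and 6.58 FPKM with PI3Kdi, and was called higher than naïve cells in both, with no fold given. Between the activated groups the log2 fold change was 0.40 (95% interval -0.10 to 0.90, adjusted p = 0.256). Fosl2 (Entrez 14284, chr5:32136472-32157840) had 4.32, 3.85 and 4.21 FPKM in the naïve libraries, 17.50, 9.55 and 10.69 FPKM in the TCR activated ones and 16.94, 13.84 and 7.74 FPKM with PI3Kdi. It rose with activation by 1.54 (SE 0.28, adjusted p = 0.000319) on the log2 scale. With PI3Kdi the difference was 0.01 (95% interval -0.60 to 0.62, adjusted p = 0.989), and it went in either direction across the 3 pools.

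All 3 Fos family mRNA fell in CTL without IL-2. Fos had 3.45, 2.66 and 1.49 FPKM in IL-2 and 0.16, 0.12 and 0.19 FPKM without it, a log2 fold change of -3.29 (SE 0.30, adjusted p = 9.63e-06). Fosl1 had 2.58, 4.75 and 6.45 FPKM in IL-2 and 0.00, 0.05 and 0.12 FPKM without it, a log2 fold change of -4.89 (SE 0.38, adjusted p = 3.34e-06). Since its low values are below the pseudocount of 0.1, this fold is set in part by it: with a pseudocount of 1 it was -2.34, and with 0.01 it was -6.65. Fosl2 had 16.42, 18.07 and 19.08 FPKM in IL-2 and 4.24, 4.67 and 4.29 FPKM without it, a log2 fold change of -1.995 (SE 0.10, adjusted p = 4.72e-07). For none of these 3 mRNA did the CTL groups overlap.

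The 250 bases before the start of Fos are shown because Fos had the largest fall with activation among the 9 of these mRNA that naïve cells expressed. They are chr12:85473640-85473889 of GRCm38.p6 (+ strand), and capitals mark TGACGT.
Fos: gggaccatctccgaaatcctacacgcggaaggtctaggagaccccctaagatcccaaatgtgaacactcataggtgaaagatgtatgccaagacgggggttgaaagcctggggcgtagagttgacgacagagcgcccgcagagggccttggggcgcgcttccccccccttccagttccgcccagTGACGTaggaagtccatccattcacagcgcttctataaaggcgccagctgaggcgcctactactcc
TGACGT lay 66 to 61 bases before the start. The windows listed for Jun and Junb held no match to the CRE TGACGTCA (1.55% of all windows), the AP-1 site TGANTCA (6.75%), the CArG box, the EGR site, the NBRE AAAGGTCA of NR4A monomers (1.34%), TGACGT or TGCGTCA, and the window of Fosl2 held 1 EGR site. This says only that those letters are not in these 250 bases.

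Junb was the most abundant of the 10 mRNA on average in each group, and Jun and Junb differed less between the groups than Fos did. JUN proteins form AP-1 dimers with each other or with FOS proteins, and JUNB is in general the weaker activator. Jun (Entrez 16476, chr4:95049036-95052222) had 24.56, 74.31 and 22.59 FPKM in the naïve libraries, 16.44, 13.90 and 19.75 FPKM in the TCR activated ones and 9.88, 12.32 and 18.44 FPKM with PI3Kdi. The log2 fold change with activation was -1.06 (SE 0.39, adjusted p = 0.0253) with groups that did not overlap, but without naïve replicate 2 it was -0.51 (adjusted p = 0.0707). The call was also lost without TCR activated replicate 1 (-1.06, adjusted p = 0.052) or replicate 2 (-0.94, adjusted p = 0.0783). With PI3Kdi the log2 fold change was -0.33 (95% interval -1.19 to 0.52, adjusted p = 0.605).

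Junb (Entrez 16477, chr8:84976909-84978748) had 112.17, 220.43 and 138.57 FPKM in the naïve libraries, 170.20, 104.77 and 139.30 FPKM in the TCR activated ones and 99.59, 92.56 and 105.57 FPKM with PI3Kdi. The naïve and TCR activated libraries covered nearly the same range, and the log2 fold change was -0.15 (95% interval -0.65 to 0.34, adjusted p = 0.537). With PI3Kdi it was -0.45 (95% interval -0.95 to 0.05, adjusted p = 0.2), lower in each of the 3 pools. Jun, Junb and Fosl1 overlap a gene on the opposite strand (Junos, Prdx2 and Ccdc85b). The library kit keeps strand, but whether the counting used it is not given in the sources used here, so reads of these pairs may not be told apart.

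In CTL both Jun mRNA were lower without IL-2. Jun had 20.81, 27.02 and 29.02 FPKM in IL-2 and 9.24, 10.27 and 10.33 FPKM without it, a log2 fold change of -1.34 (SE 0.13, adjusted p = 1.26e-05). Junb had 44.34, 67.98 and 64.22 FPKM in IL-2 and 28.69, 35.09 and 30.18 FPKM without it. Its log2 fold change of -0.89 (SE 0.15, adjusted p = 0.000615) passed the adjusted p but not the fold limit. Neither mRNA had overlapping CTL groups.

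Because FPKM are per length, the makeup of each AP-1 family could be followed as the share of each mRNA in the summed FPKM of its family (Fos, Fosb, Fosl1 and Fosl2, or Jun, Junb and Jund). Fos made up 90.52%, 93.95% and 87.60% of Fos family mRNA in naïve cells and 9.87%, 13.82% and 17.56% in TCR activated cells. Fosl2 went from 6.52% ± 4.01 (SD, n = 3) to 48.3% ± 8.63 (SD, n = 3), and Fosl1 from 0 to 27.2% ± 2.30 (SD, n = 3). The naïve and TCR activated libraries thus differed in the shares of the Fos family mRNA, while Fos and Fosl2 were present in all of them. Adding Batf, Batf3 and Atf3 to the sum changed the Fos difference from -76.9 to -61.0 percentage points (Jdp2 was measured only in CTL). The exact two-sided permutation test gave p = 0.1 for each of these 3 differences, the smallest that 3 libraries against 3 allow, and 0.169 after Benjamini-Hochberg adjustment over the 27 shares compared.

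The summed levels also differed. Fos family mRNA summed to 58.04, 181.22 and 42.19 FPKM in the naïve libraries, to 30.19, 21.05 and 25.79 FPKM in TCR activated cells and to 32.41, 34.96 and 21.09 FPKM with PI3Kdi. The difference in Fos share without naïve replicate 2 was still -75.3 percentage points, against -76.9 with it. The Fos share was 13.8% ± 3.85 (SD, n = 3) after activation alone and 21.3% ± 5.65 (SD, n = 3) with PI3Kdi, with overlapping libraries and an exact permutation p = 0.2.

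In CTL, where Fosb was not measured, Fosl2 made up 71.6% ± 1.38 (SD, n = 3) of Fos family mRNA in IL-2 and 95.4% ± 1.83 (SD, n = 3) without it. The Fosl1 share was 11.49%, 18.64% and 23.87% in IL-2 and 0.00%, 1.03% and 2.61% without it, and the Fos share 10.4% ± 4.93 (SD, n = 3) and 3.42% ± 0.847 (SD, n = 3). Each pair of groups was apart, with exact permutation p = 0.1. With Batf, Batf3, Atf3 and Jdp2 in the sum the Fosl2 difference was -10.4 percentage points instead of 23.8, so its direction holds only within the Fos family. The sum over the 3 mRNA was 22.45, 25.48 and 27.02 FPKM in IL-2 and 4.40, 4.84 and 4.60 FPKM without it.

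The Jun family was led by Junb in the first table and by Jund, a family member that is expressed in most resting cells, in CTL. Junb made up 59.7% ± 1.21 (SD, n = 3) of Jun family mRNA ex vivo, 64.3% ± 3.72 (SD, n = 3) after activation and 60.4% ± 1.86 (SD, n = 3) with PI3Kdi. Jund made up 60.4% ± 3.29 (SD, n = 3) in CTL in IL-2 and 52.7% ± 1.72 (SD, n = 3) without it, while Junb went from 27.5% ± 2.02 (SD, n = 3) to 35.9% ± 1.24 (SD, n = 3). The CTL groups were apart for both, with exact permutation p = 0.1, and with the same 4 mRNA added to the sum the Junb difference was -0.43 percentage points instead of 8.41. Jund itself fell without IL-2 by 1.47 on the log2 scale (SE 0.15, adjusted p = 1.62e-05), from 129 ± 29.5 (SD, n = 3) to 45.9 ± 4.06 (SD, n = 3) FPKM.

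**Figure D3:**
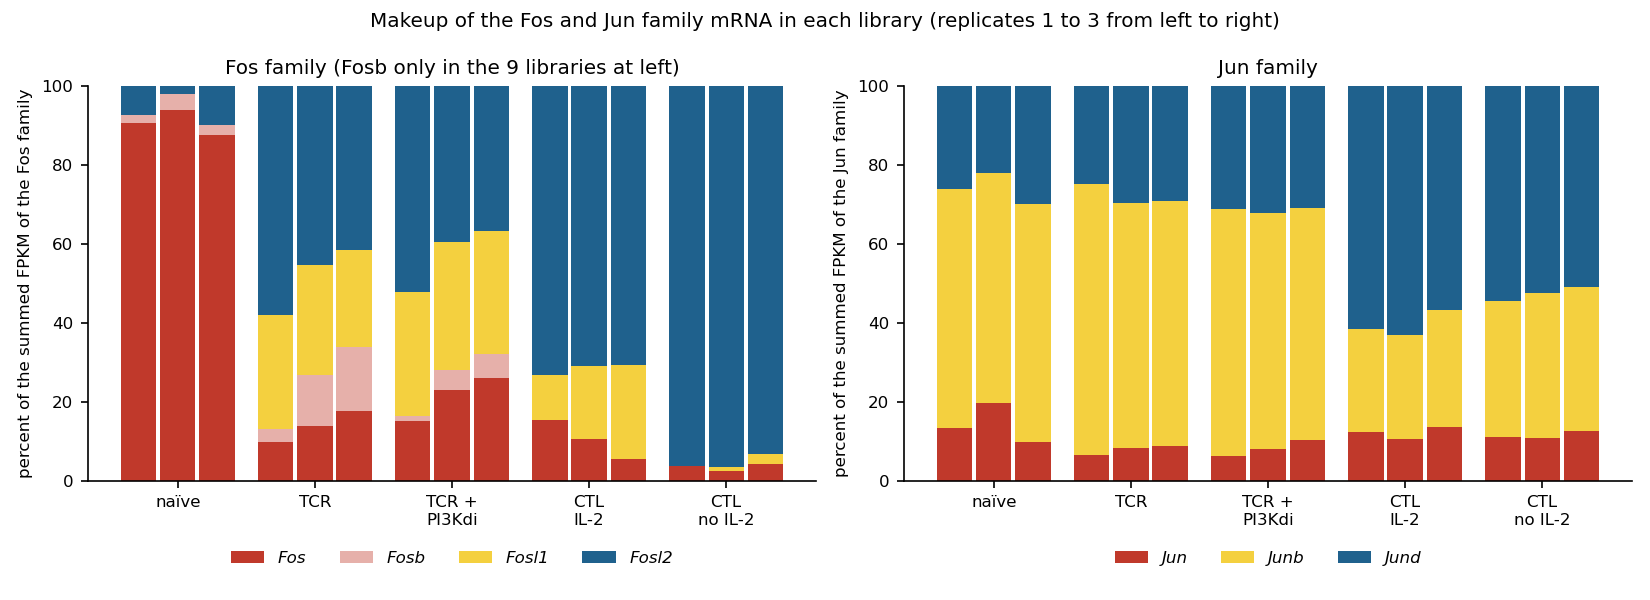
Percent of the summed FPKM of the Fos family (left) and Jun family (right) on the y axis in each of the 15 libraries on the x axis, stacked by gene. A reader should see Fos filling 87.60% to 93.95% of the naïve Fos family bars, Fosl1 and Fosl2 filling most of the activated ones, and Fosl2 at 93.26% or more in CTL without IL-2.

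Relatives of these factors were looked at by a list of 9 genes, of which 6 were measured in each table. In TCR activated cells 4 of the 6 were called higher (Nr4a2, Batf, Batf3 and Atf3) and none lower, also at an unadjusted p under 0.05. Nr4a2, the remaining NR4A gene, had 0.05, 0.29 and 0.15 FPKM in the naïve libraries, 10.31, 6.17 and 11.95 FPKM in the TCR activated ones and 2.19, 2.28 and 1.70 FPKM with PI3Kdi. Batf3 and Atf3, bZIP factors that pair with JUN proteins, were read as 0 in all 3 naïve libraries. Batf3 had 89.15, 55.56 and 65.00 FPKM in TCR activated cells and 21.75, 13.10 and 22.63 FPKM with PI3Kdi, and Atf3 had 27.54, 17.83 and 20.59 FPKM and 8.54, 7.16 and 5.67 FPKM. These 3 relatives were the ones called lower with PI3Kdi, at -2.11 (adjusted p = 0.00173) for Nr4a2, -1.87 (adjusted p = 0.000259) for Batf3 and -1.61 (adjusted p = 0.000331) for Atf3.

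Batf, Jund and Fosb were not called with PI3Kdi. Batf, which pairs with JUN proteins at sites shared with IRF4, had 102 ± 7.77 (SD, n = 3) FPKM with PI3Kdi and 111 ± 4.32 (SD, n = 3) FPKM without it, a log2 fold change of -0.12 (adjusted p = 0.352). In CTL 3 relatives were called lower without IL-2, which were Nr4a2 (-1.18), Jund (-1.47) and Atf3 (-1.69). Batf3 differed there by 0.06 (adjusted p = 0.822).

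Within the pools that were divided between the activated groups, the ratio with PI3Kdi to without was 0.507, 0.654 and 0.286 for Nr4a1 and 0.169, 0.265 and 0.127 for Nr4a3. It was 1.18, 1.70 and 1.20 for Egr1, 2.09, 1.91 and 1.45 for Egr2 and 2.00, 2.73 and 1.17 for Egr3. Each pool thus had less of both NR4A mRNA and more of all 3 EGR mRNA with PI3Kdi. Fos and Fosl1 were likewise higher and Jun and Junb lower in each pool, while Fosl2 went both ways. The share of all mRNA that moved in 1 direction in each pool was not computed. Of the 10 mRNA only Nr4a1 and Nr4a3 were called with PI3Kdi. Summed over each family, NR4A mRNA (Nr4a2 included) had 77.52 to 142.87 FPKM in TCR activated cells and 27.50 to 34.55 FPKM with PI3Kdi, and EGR mRNA 39.69 to 52.38 FPKM and 59.25 to 78.27 FPKM. Neither sum overlapped between the groups.

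**Figure D4:**
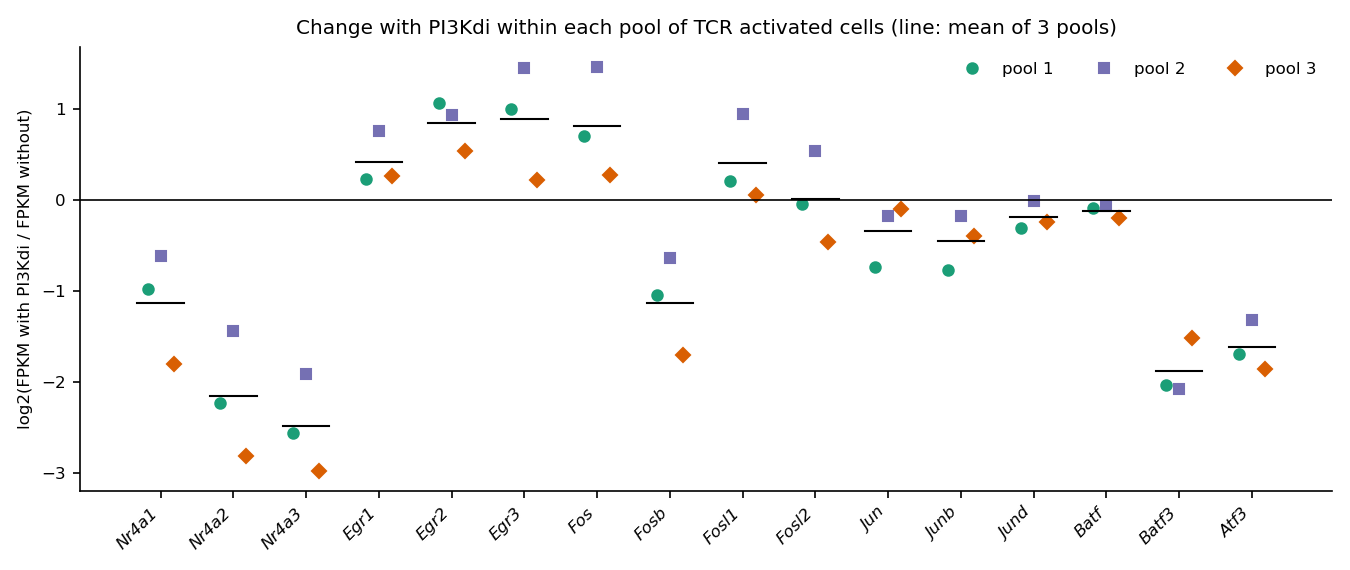
log2 ratio of FPKM with PI3Kdi to FPKM without on the y axis for the 10 mRNA and 6 relatives on the x axis, with 1 point per pool and a line at the mean of the 3 pools. A reader should see all points of Egr1, Egr2, Egr3, Fos and Fosl1 above 0, those of Fosl2 on both sides, and all points of the other mRNA below 0, from just under 0 for Batf to the lowest for Nr4a3.

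Markers of other cells moved with PI3Kdi too. Among B cell markers, Ms4a1 had 0.48, 0.77 and 0.95 FPKM in TCR activated cells and 0.11, 0.04 and 0.04 FPKM with PI3Kdi, and was called lower. Cd22 was called lower as well, with 0.60, 0.29 and 0.70 FPKM against 0.03, 0.05 and 0.02 FPKM. Cd79a and Cd79b, which encode the signalling chains of the B cell receptor, were not called, and Cd79b had 2.99, 2.58 and 3.48 FPKM against 2.79, 3.31 and 3.77 FPKM. Of 8 myeloid and dendritic markers 2 were measured (Itgam and Cst3), and neither was called. The effector genes Gzmb, Prf1 and Ifng were called lower and Il7r, the interleukin 7 receptor, higher. The part of these cells and states in the levels of the 10 factors was not tested.

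The kinases and factors upstream of immediate early genes were described by a list of 25 genes, of which 24 were measured in each table. In TCR activated cells 2 were called higher and 6 lower, led by Crem (2.71 on the log2 scale), a CREB family factor with repressor isoforms, the SRF coactivator Mkl1 (-2.38) and the SRF partners Elk3 (-2.19) and Elk4 (-1.78). With PI3Kdi limma called 0 of the 24, while 3 were higher and 4 lower at an unadjusted p under 0.05. In CTL without IL-2 Elk4 was called higher (1.62) and Mapkapk2, a kinase below p38, lower (-1.22). The median log2 fold change of the list was -0.36, -0.05 and 0.00 in these comparisons.

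Among 21 other early response genes, activation was followed by 4 calls higher and 9 lower, with the largest changes for the stress and NF-κB response gene Gadd45b (4.24), Ier3 (4.12), the antiproliferative gene Btg2 (-3.28) and the mRNA decay factor Zfp36 (-3.22). PI3Kdi was followed by 3 calls in each direction. Klf6 (-1.85), Gadd45b (-1.66) and Ier3 (-1.33) were lower and the ERK phosphatase Dusp2 (1.27), Zfp36l1 and Zfp36 higher. IL-2 withdrawal was followed by 5 calls higher and 7 lower, led by Btg2 (3.08), Dusp1 (-2.38), Myc (-2.31) and Dusp5 (-2.19). These genes did not all move in 1 direction in any of the 3 comparisons. Of the heat shock genes, a list of 8, 7 were measured in the first table and 6 in CTL. With activation 5 were called higher (Hspa8, Hsph1, Hsp90aa1, Hspd1 and Hspe1) and Hspa1b lower (-3.79). Dnajb1 was lower as well at -0.79 (adjusted p = 0.000176 from limma), which is less than 2-fold. In CTL without IL-2 4 of the 6 were called lower. With PI3Kdi limma called 0, with 2 lower at an unadjusted p under 0.05.

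Genes tied to NR4A, EGR or AP-1 factors in T cells were described by a list of 10, of which 9 were measured in each table. In TCR activated cells 6 were called higher, among them Il2ra (9.49), Lag3 (9.25), the costimulatory receptor Tnfrsf9 (6.54) and Pdcd1 (5.04), and Tox was called lower. With PI3Kdi 3 were called lower and none higher at an adjusted or unadjusted p under 0.05. Tnfrsf9 had 159 ± 63.9 (SD, n = 3) FPKM after activation alone and 23.1 ± 10.1 (SD, n = 3) with PI3Kdi (-2.80, adjusted p = 0.000387), Il2 had 10.8 ± 7.45 (SD, n = 3) and 2.90 ± 0.391 (SD, n = 3) (-1.61, adjusted p = 0.0211), and Fasl had 1.01 ± 0.348 (SD, n = 3) and 0.0533 ± 0.0231 (SD, n = 3) (-2.82, adjusted p = 6.92e-05). In CTL without IL-2 4 were called lower, which were Tnfrsf9 (-5.24), Havcr2 (-2.54), Il2ra (-2.37) and Pdcd1 (-1.47), and Lag3 was called higher (1.01).

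Markers of other cells and states also moved with IL-2 withdrawal. The effector genes Gzmb, Prf1 and Ifng were called lower and Ccr7 and Il7r higher without IL-2. Of the 8 myeloid and dendritic markers 3 were measured, which summed to 61.55 to 68.90 FPKM in IL-2 and 94.97 to 105.6 FPKM without it. Most of each sum was Cst3, not called, with 60.83 to 68.31 FPKM in IL-2 and 85.70 to 97.99 FPKM without it. Itgam and Itgax were called higher. Itgam had 0.20 to 0.39 FPKM in IL-2 and 3.89 to 4.46 FPKM without it, and Itgax 0.21 to 0.39 FPKM and 3.67 to 5.17 FPKM. The B cell marker Cd79b, measured alone of its list, had 2.74 to 6.30 FPKM in IL-2 and 10.80 to 20.64 FPKM without it. Of 2 measured CD4 T cell markers Cd4 was called higher, with 0.05 to 0.39 FPKM in IL-2 and 0.92 to 1.92 FPKM without it. Zbtb7b was not called, at 16.70 to 20.97 FPKM in IL-2 and 24.63 to 28.31 FPKM without it, although its groups did not overlap. The part of these cells and states in the lower levels of the 6 factors was not tested.

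Naïve replicate 2 held the highest Fos, Jun and Junb of the naïve group. Its Fos was 3.24 times and its Jun 3.03 times that of the next naïve library, and Junb was 1.59 times. The same library was the lowest of the naïve group for Nr4a1, Nr4a3, Egr1, Egr2, Egr3 and Fosl2. Only 15 of 9703 mRNA with a naïve mean of at least 1 FPKM (0.155%) were over 2-fold above both other naïve libraries in replicate 2, and Fos, Jun, Fosb and the MAPK phosphatase Dusp1 were 4 of them. Of the 21 other early response genes, 11 were highest in replicate 2, where 34.8% of all mRNA were, and 1 was over 2-fold above both other libraries. The median of the 21 genes in replicate 2 lay 0.20 on the log2 scale above the mean of the others.

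The remaining mRNA of those 15 were named after their values were seen. The largest difference was that of Bpifa2, a secreted protein of the salivary gland, with 0.72, 76.26 and 0.17 FPKM. Of the MHC class II genes of antigen presenting cells, H2-Eb1 had 0.46, 4.07 and 1.22 FPKM, H2-Aa 2.23, 8.60 and 3.74 FPKM and H2-Ab1 1.36, 5.13 and 2.26 FPKM, and H2-DMb2 followed the same order. The B cell marker Cd79b had 19.61, 21.76 and 19.63 FPKM in the naïve libraries. Cd79a had 0.81, 2.76 and 1.54 FPKM, Ms4a1 0.22, 0.91 and 0.40 FPKM and Cd22 0.09, 0.71 and 0.44 FPKM. Replicate 2 was the highest naïve library for each of these B cell markers. The heat shock gene Hspa1b, at 14.26, 13.82 and 1.66 FPKM, set replicate 3 apart rather than replicate 2. The part of other cells or of handling in the naïve levels of Fos and Jun was not tested.

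**Figure D5:**
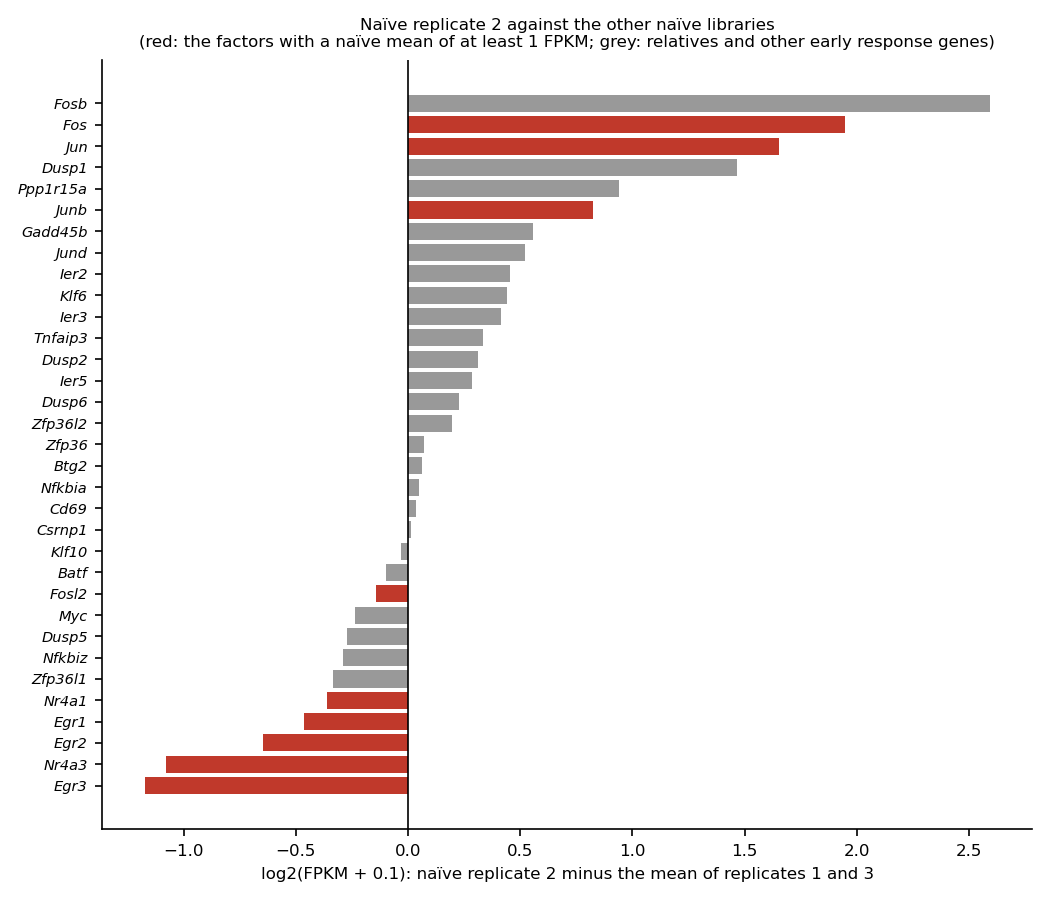
Difference in log2(FPKM + 0.1) between naïve replicate 2 and the mean of naïve replicates 1 and 3 on the x axis for mRNA on the y axis (red, the 9 factors with a naïve mean of at least 1 FPKM; grey, relatives and other early response genes). A reader should see Fosb, Fos, Jun and Dusp1 at the top and Egr3 and Nr4a3 at the bottom.

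Leaving out naïve replicate 2 kept the calls of Nr4a1, Nr4a3, Egr2, Egr3, Fos, Fosl1 and Fosl2 in TCR activated against naïve cells and ended that of Jun. Against naïve cells, PI3Kdi treated cells had 5 of the 10 mRNA called higher (Nr4a1, Nr4a3, Egr2, Fosl1 and Fosl2) and 2 lower (Fos and Jun), where 23.6% of all mRNA were called higher and 21.3% lower. Without naïve replicate 2 the count was 4, since Nr4a1 (0.93), Nr4a3 (0.90) and Jun (-0.84) were then under 2-fold. The log2 fold change was -3.51 (SE 0.45, adjusted p = 2.26e-05) for Fos and 2.52 (SE 0.24, adjusted p = 2.12e-06) for Egr2.

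The order of the 10 mRNA by mean FPKM differed between the groups. Junb had the highest mean of the 10 mRNA in each of the 5 groups, with 157 ± 56.4 (SD, n = 3) FPKM ex vivo, 138 ± 32.7 (SD, n = 3) after activation, 99.2 ± 6.51 (SD, n = 3) with PI3Kdi, 58.8 ± 12.7 (SD, n = 3) in CTL in IL-2 and 31.3 ± 3.35 (SD, n = 3) in CTL without it. Fos followed in naïve cells with 86.6 ± 72.9 (SD, n = 3) FPKM, where both ranges overlapped. Nr4a1 with 51.0 ± 25.3 (SD, n = 3) FPKM and Nr4a3 with 40.6 ± 8.90 (SD, n = 3) FPKM followed in TCR activated cells, with overlapping ranges. With PI3Kdi the next was Egr1 with 35.6 ± 5.11 (SD, n = 3) FPKM, and in CTL it was Jun, with 25.6 ± 4.28 (SD, n = 3) FPKM in IL-2 and 9.95 ± 0.613 (SD, n = 3) FPKM without it.

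The mRNA whose pattern over the 9 libraries of the first table was nearest to each factor were named by the smallest root mean square distance between mean-centred log2(FPKM + 0.1) values, among mRNA with a mean of at least 1 FPKM. Those nearest to Nr4a1 were Gfod1 (0.31) and Dennd4a (0.32), and those nearest to Nr4a3 were Ccdc50 (0.57) and Ell2 (0.58). Egr1 lay nearest to Cd6 (0.16) and Chd7 (0.17), Egr2 to Tst (0.21) and Paqr4 (0.24), and Egr3 to Trerf1 (0.32) and Tmem86b (0.345). Another early response gene or family member was among the nearest of Jun, with Ppp1r15a (0.34) and Arrdc3 (0.385), and of Junb, with Jund (0.19) and Ier2 (0.22). Fos had Mgst2 (0.51) and Hcst (0.54), Fosl1 had Lilrb4 (0.18) and Cetn4 (0.28), and Fosl2 had the MAPK phosphatase Dusp16 (0.23) next to the kinase Map3k8 (0.22). None of the 10 factors was among the nearest of another.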

How the data were processed

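Poly(A) RNA of 15 libraries was sequenced by the authors, aligned to mm10 with STAR 2.5.2b and counted with Subread 1.5.1 on RefSeq genes. The authors filtered and TMM-normalised the counts in edgeR and deposited FPKM per gene, on summed exon length and rounded to 2 decimals, in 2 tables that were normalised apart. Blank cells were read as 0. Counts were not analysed here. Depth was estimated from the spacing of low FPKM values, clear in 11 of 15 libraries, at 9.6 to 13.9 M reads. Groups came from the sample titles. In the labels of CTL in IL-2, replicates 2 and 3 carry another cytokine name in the treatment field.

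limma 3.58.1 (R 4.3.3) with an intensity trend was fitted to log2(FPKM + 0.1) over all mRNA, in 1 fit for the 9 libraries of the first table and 1 for the 6 CTL libraries, since the deposited unit is not suited to a count test. p-values were adjusted by Benjamini-Hochberg, and calls needed an adjusted p under 0.05 and a fold change over 2 or under 0.5. On simulated data with 200 changed genes 97 to 98% were recovered, with 0 to 3 false calls. Recovery of differences near the fold limit, where several of the 10 mRNA lie, was not tested. Shares within the AP-1 families were compared by exact permutation with scipy 1.17.1 in Python 3.11.15 (numpy 2.4.6, pandas 2.3.3, matplotlib 3.10.9). Promoter windows came from RefSeq (GRCm38.p6), and 7 of the 10 members were matched.

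Each pool of the first table was divided between the 3 conditions, per the study's methods. Deviations from the group means of same-numbered libraries correlated at 0.275, 0.203 and 0.506 between the activated groups, at -0.181 to 0.226 between naïve and TCR activated cells, at -0.017 to 0.030 between naïve and PI3Kdi treated cells, and at 0.123, 0.166 and 0.257 between the CTL groups. A fit with the replicate as a block was an alternative. The CTL libraries carry BR replicate titles like those of the first table, whose replicates were pools of mice. Whether the CTL replicates are separate cultures is not stated beyond these titles, so their p-values may measure technical spread.

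The 10 members and all lists were chosen with earlier results of these data known. The members were named with all their values, list genes by the up to 4 largest called changes, and for each member the 2 nearest mRNA by profile. Marker genes and some genes of naïve replicate 2 were named beside results after their values were seen. Alternatives were other pseudocounts (0.01 and 1), a filter at a mean of 1 FPKM, median scaling, the block, no trend, fits of 2 groups, other fold limits and leaving out each library. Some marker genes and part of the naïve gate are not reported here.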

Additional observations from a re-analysis of the deposited data

How the results depend on the processing

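The number of the 10 mRNA called stayed within 1.5 times its value under each alternative except that, for PI3Kdi treated against naïve cells, it was 4 instead of 7 without naïve replicate 2. Leaving out 1 library gave 6 to 8 calls for TCR activated against naïve cells, 2 to 3 for PI3Kdi, 4 to 7 for PI3Kdi treated against naïve cells and 6 to 7 in CTL. With the replicate block the counts were 8, 2, 7 and 6, as without it, and it changed no other call. Calls over all mRNA with PI3Kdi numbered 579, and 311 with a pseudocount of 1. Median scaling removed a difference of medians of -0.096 (TCR activated) and -0.10 (PI3Kdi treated) on the log2 scale against naïve cells, and ended the call of Jun with activation (-0.98). A pseudocount of 1 put Egr3 with activation and Nr4a3 in CTL (both -0.99), and Nr4a1 of PI3Kdi treated against naïve cells (0.99), under 2-fold.

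Leaving out 1 library turned the direction of uncalled log2 fold changes, with ranges of -0.15 to 0.16 for Egr1 and -0.37 to 0.12 for Junb with activation, -0.23 to 0.33 for Fosl2 with PI3Kdi, -0.605 to 0.006 for Egr3 of PI3Kdi treated against naïve cells and -0.043 to 0.347 for Egr2 in CTL. Junb in CTL was called without CTL in IL-2 replicate 1 (-1.08). Leaving out 1 library also turned share differences, in percentage points, of Jund with activation (-0.18 to 3.85), Jun with PI3Kdi (-0.80 to 1.24), Junb of PI3Kdi treated against naïve cells (-0.33 to 1.48) and Jun in CTL (-1.43 to 0.043).

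Batf, Batf3 and Atf3, and in CTL also Jdp2, which was measured only there, were added to the sum, which enlarges it. Share differences then turned to -19.9 for Junb, -8.66 for Jund and -0.794 for Fosb with activation. With PI3Kdi they turned to 1.03 for Junb and 2.60 for Fosl2. For PI3Kdi treated against naïve cells they turned to -18.8 for Junb, -5.26 for Jund and -1.25 for Fosb, and in CTL to -0.428 for Junb and -10.4 for Fosl2. Levels under about 1 FPKM, such as Fosl1 in CTL without IL-2, are limited by the 2 decimals of the files.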
